A study of Mus musculus with 12 samples.

Results

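The loci of 5 developmental regulators, each named after a gene for a DNA-binding transcription factor, carried H3K27me3 in every library of the series, in embryonic gut epithelium as well as in adult stem cells and enterocytes. The loci were Pax6, Pax3, Tbx15, Vax2 and Dmbx1. H3K27me3 is the trimethylation of lysine 27 of histone H3. The loci were chosen by the length of sequence called in all 8 lists, of which they hold 5 of the 8 longest stretches, so their presence in every list is the choice itself and not a result. Windows on mm9 defined them: chr2:105490001-105545000 for Pax6, chr1:78090001-78225000 for Pax3, chr3:99030001-99165000 for Tbx15, chr6:83635001-83690000 for Vax2 and chr4:115580001-115650000 for Dmbx1. Of 81097 islands, the authors' enriched intervals, in the 8 lists, 78 touched a window. The gene at each window comes from the rule that named it, since the lists hold no gene names.

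Chromatin came from small intestine of mice of mixed C57BL/6 CD1 background. There were 4 groups of 2 ChIP-seq libraries, described as biological duplicates: EpCAM-positive epithelium of E12.5 and of E14.5 embryos (embryonic days), Lgr5-expressing stem cells of the adult intestine (ISC) and adult enterocytes (AE). Both adult groups came from males at postnatal day 60 (P60) that carried Lgr5EGFP-Cre-ERT. ISC were sorted on high EGFP, and the gate given for AE was EpCAM-positive, CD31- and CD45-negative, which names no marker of enterocytes themselves. Embryonic cells were sorted with the same markers, and no EGFP allele is named for them. Whether animals were pooled is not given, so the spread between duplicates may be partly technical. The lists hold no expression values, and the cell identities were not checked against marker genes.

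Polycomb repressive complex 2 writes H3K27me3, and broad domains of the mark cover developmental regulators in lineages that do not use them. Pax6 is a paired-box and homeobox factor of eye, forebrain and endocrine pancreas, and also acts in gut endocrine cells. Pax3, of the same family, acts in neural crest and muscle precursors. Tbx15, a T-box factor, acts in skeletal and dermal mesenchyme. Vax2 is a homeobox factor of the ventral retina, and Dmbx1 a homeobox factor of the developing brain. In the RefSeq gene order of GRCm38.p6, the nearest protein-coding neighbours were Rcn1 and Elp4 for Pax6, Epha4 and Gm2102 for Pax3, Wars2 and Spag17 for Tbx15, Cd207 and Atp6v1b1 for Vax2, and 6430628N08Rik and Faah for Dmbx1.

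RefSeq promoter entries were at hand for 2 of the 5 genes. They are shown because dense CpG (C followed by G) is a known feature of Polycomb target promoters. The sequences are the 250 bases before each start, 5′ to 3′ on the gene's strand, with every CG in capitals. They lie on GRCm38.p6 and were not placed against the mm9 islands. The first Pax6 start is at chr2:105668646-105668895 (plus strand), the second at chr2:105682213-105682462 (plus strand), and the Dmbx1 promoter at chr4:115939927-115940176 (minus strand).
Pax6, first start: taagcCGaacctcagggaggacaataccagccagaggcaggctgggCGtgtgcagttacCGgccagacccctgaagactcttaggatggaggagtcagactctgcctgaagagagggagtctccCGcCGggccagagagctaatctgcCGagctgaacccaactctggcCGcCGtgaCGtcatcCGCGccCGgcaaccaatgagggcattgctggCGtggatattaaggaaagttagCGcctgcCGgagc
Pax6, second start: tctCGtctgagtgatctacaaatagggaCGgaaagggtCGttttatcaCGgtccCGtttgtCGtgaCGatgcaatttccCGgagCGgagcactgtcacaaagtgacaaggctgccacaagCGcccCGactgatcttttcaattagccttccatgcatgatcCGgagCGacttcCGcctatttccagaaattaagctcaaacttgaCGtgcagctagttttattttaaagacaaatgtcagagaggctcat
Dmbx1: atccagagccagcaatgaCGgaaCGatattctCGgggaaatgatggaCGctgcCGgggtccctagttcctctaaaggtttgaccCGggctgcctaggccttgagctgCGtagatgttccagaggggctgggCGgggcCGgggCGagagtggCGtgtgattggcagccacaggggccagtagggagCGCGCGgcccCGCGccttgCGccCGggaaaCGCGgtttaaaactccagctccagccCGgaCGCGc
The first Pax6 promoter held 15 CG, the second 15 and the Dmbx1 promoter 23, against a median of 6 over 32851 promoters of this length, of which 92.1% held at least 1. CG reads the same on both strands, so only 1 strand was counted. The share of promoters with fewer CG was 72.7% for either Pax6 start and 86.7% for Dmbx1. CG observed over expected from base composition was 0.652, 1.06 and 0.88, against a median of 0.373.

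Of the 200 bp windows called in at least 1 list, 16.8% and 20.4% were called in the E12.5 libraries (replicates 1 and 2), 20.4% and 29.3% in the E14.5 libraries, 64.8% and 16.3% in ISC, 21.5% and 24.4% in AE, and 2.96% in all 8. The lists thus differed in extent, from 60.8 Mb in ISC replicate 2 to 241 Mb in ISC replicate 1, and the reads inside islands numbered between 1171968 and 6627853. The duplicates of a group carried equal control counts in every interval that both lists hold (17 to 52 intervals a group), so their control is 1 input. ISC replicate 1 stands apart in length, and values without it are given where it decides one. Reads outside islands are not listed, so a position without an island was not called there, which leaves a lower level of the mark possible. The share of a window called in a list is described first.

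At Pax6, 78.2% and 80.4% of the window was called in E12.5 libraries, 82.9% and 85.5% in E14.5 libraries, 85.1% and 81.8% in stem cells, and 80.4% and 67.3% in enterocytes. AE replicate 2 was lowest, and the other 7 libraries lay within 7.27 points of each other. The stretch called in all 8 spanned 35.6 kb (chr2:105498601-105534200). The islands over it held 959 and 2757 ChIP reads at E12.5, beside 786 and 946 control reads. For E14.5 they held 4589 and 4002 against 1140 and 1156, for stem cells 3617 and 1650 against 1137 and 1069, and for enterocytes 2973 and 1626 against 1001 and 809. A single island covered the called part of the window in 7 lists, and E12.5 replicate 1 had a second one of 8.6 kb, with a fold of 1.46. The high-coordinate border of the Pax6 island varied little: all 8 lay between 105534200 and 105537000, and beyond them 8 kb, in all, of the window were called in no list. The low-coordinate border ran from 105486001 in E14.5 replicate 1 to 105498601 in AE replicate 2.

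Pax3 had the most called length of the 5 loci, in a window of 135 kb against 55 kb at Pax6 and Vax2 and 70 kb at Dmbx1. It was also the most divided. In ISC replicate 2 and AE replicate 2 the island over its longest always-called stretch, 41 and 35.4 kb, was the shortest of the 5 loci. The share called was 69.0% and 73.8% in E12.5 libraries, 87.4% and 84.3% in E14.5 libraries, 98.1% and 73.8% in stem cells, and 81.5% and 63.7% in enterocytes. The duplicates of ISC and of AE were thus 24.3 and 17.8 points apart, further than those of E12.5 (4.74) or E14.5 (3.11). Of the 135 kb, 72.6 kb in 6 stretches was called in all 8, the longest being 34 kb (chr1:78184201-78218200). The gaps between these stretches were 1.2 to 4.0 kb long. Each gap was called throughout in 6 or 7 of the 8 lists. The libraries that left a gap open were E12.5 replicate 1, ISC replicate 2 and AE replicate 2, and in the other 5 lists a single island of 93.4 to 126.2 kb ran across all of them. The islands over the longest stretch held 1109 and 4090 ChIP reads in E12.5 libraries, 6935 and 5793 in E14.5 libraries, 6521 and 1306 in stem cells, and 4949 and 1334 in enterocytes. The corresponding control reads were 932 and 1762, 1997 and 1929, 2460 and 805, and 1563 and 692.

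Tbx15 was called in every list over the low-coordinate end of its window alone. The share was 25.8% and 33.6% in E12.5 libraries, 40.7% and 43.0% in E14.5 libraries, 50.8% and 31.4% in stem cells, and 27.7% and 28.0% in enterocytes. Both E14.5 libraries lay above both E12.5 and both AE libraries, and the ISC duplicates were too far apart to place. These orders were common. By length called in a stretch and 20 kb to either side, they held at 58.7% and 36% of the 874 always-called stretches of 5 kb or more. Of the 135 kb, 34.8 kb (chr3:99036201-99071000) was called in all 8 lists and 49.4 kb in none. The low-coordinate border was the sharpest of the 10 borders at these loci by the number of libraries that shared it: in 7 of 8 libraries it lay between 99035401 and 99036201, and in ISC replicate 2 at 99033001. The high-coordinate border ranged from 99071000 in E12.5 replicate 1 to 99093600 in ISC replicate 1, and without ISC replicate 1 to 99079200 in E14.5 replicate 1. Past the main island, 7 weaker islands of 3.8 to 10.6 kb appeared in E12.5 replicate 2, both E14.5 libraries and ISC replicate 1, with folds of 1.23 to 2.26. Neither AE library had one. The main island held 785 and 2076 ChIP reads at E12.5 beside 698 and 721 control reads, and 3532 and 3011 beside 936 and 931 at E14.5. In ISC it held 3397 and 1343 beside 1188 and 876, and in AE 2404 and 1331 beside 739 and 748.

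The Vax2 window was called nearly throughout. Its share was 91.3% and 92.4% in E12.5 libraries, 100% and 97.8% in E14.5 libraries, 96.4% and 87.3% in stem cells, and 100% and 89.1% in enterocytes. The E12.5 duplicates were 1.09 points apart and both E14.5 libraries lay above them, while the ISC and AE duplicates, 9.09 and 10.9 points apart, overlapped with the other groups. The same order of E14.5 and E12.5 held at the 58.7% of stretches given for Tbx15. Of the 55 kb, 43.8 kb in 3 stretches was called in all 8, the longest 33.8 kb (chr6:83641401-83675200), and every window of 200 bp was called in at least 4 lists. ISC replicate 2 and AE replicate 2 each left 1 gap between the stretches, of 1.2 and 1.4 kb. The islands reached well past the window at its low-coordinate side, to 83602401 in ISC replicate 1 and to 83622401 and 83622801 at E14.5. The island over the longest stretch held 1005 and 2370 ChIP reads at E12.5 beside 993 and 1052 control reads. The ChIP reads were 4415 and 3567 in the E14.5 libraries, 4453 and 1397 in stem cells and 3189 and 1607 in enterocytes, and the control reads 1895 and 1618, 1917 and 955, and 1288 and 889.

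Dmbx1 held the longest always-called stretch of the 5 loci, 45.8 kb (chr4:115594001-115639800), which was the whole main island of E12.5 replicate 1. The share of the window called was 68.3% and 90.3% in E12.5 libraries, 97.1% and 90.6% in E14.5 libraries, 100% and 89.4% in stem cells, and 99.1% and 96.6% in enterocytes. E12.5 replicate 1 was lowest, and the next library, ISC replicate 2, was at 89.4%. In 4 libraries (E12.5 replicate 2, both of E14.5 and ISC replicate 2) a separate island of 14.2 to 21.8 kb ended between 115581200 and 115582200, and the main island began between 115584201 and 115589601. In ISC replicate 1 and both AE libraries a single island spanned that gap. The main island held 986 and 2870 ChIP reads at E12.5, fewer than the 1025 control reads in replicate 1 before scaling for library size and more than the 1486 in replicate 2. It held 4488 and 3818 ChIP reads in the E14.5 libraries, 5497 and 1871 in stem cells and 3754 and 2653 in enterocytes, beside 1957 and 1990, 2605 and 1468, and 1539 and 1585 control reads.

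**Figure D1:**
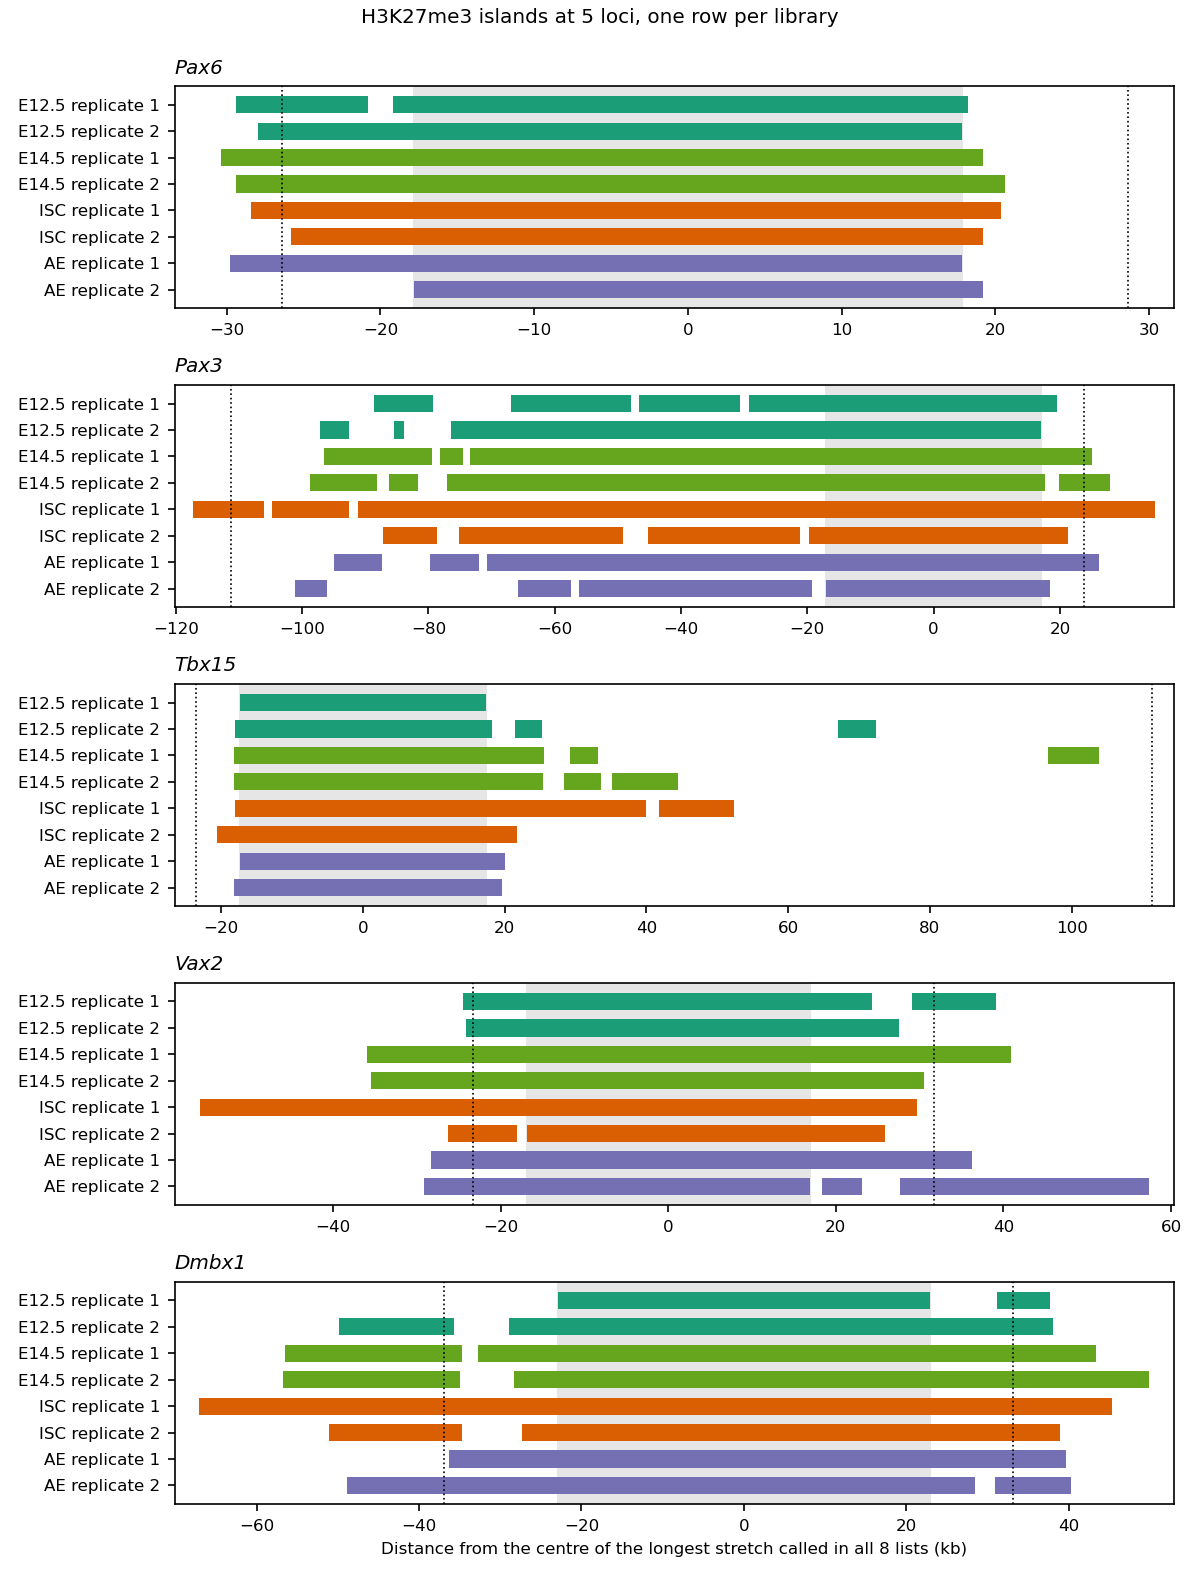
Islands of each list (bars, 1 row a library, coloured by group) at the 5 loci, against the distance in kb from the centre of the longest stretch called in all 8 lists, which is shaded. Dotted lines mark the windows. The low-coordinate ends at Tbx15 and the high-coordinate ends at Pax6 line up across libraries, and the Pax3 domain is broken in E12.5 replicate 1, ISC replicate 2 and AE replicate 2.

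**Figure D2:**
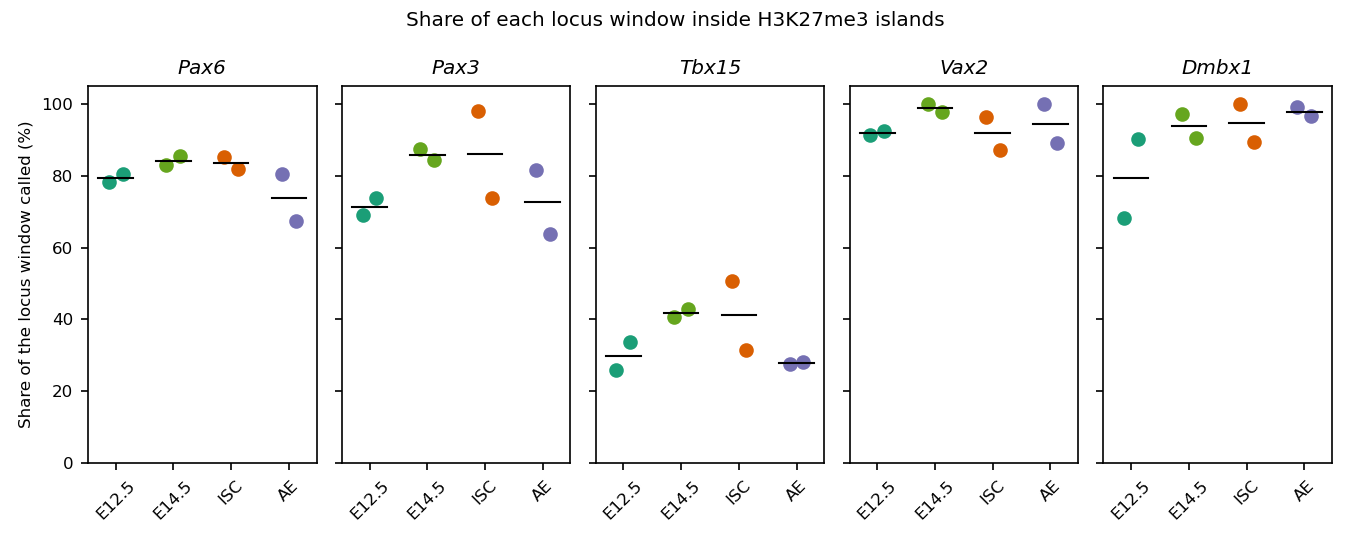
Share of each locus window inside islands (percent), 1 point a library with replicate 1 at the left, and the mean of each group as a line. The ISC duplicates at Pax3 are 24.3 points apart. Both E14.5 points lie above both E12.5 points at the 5 loci, an order that 58.7% of the 874 always-called stretches of 5 kb or more showed in length called with 20 kb flanks. At Dmbx1 the order is close, with 90.6% in E14.5 replicate 2 and 90.3% in E12.5 replicate 2.

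The 10 borders of the islands over the 5 stretches were set beside the 1748 borders of islands over all 874 stretches of 5 kb or more that were called in every list. The spread of a border was taken as the distance between its innermost and outermost position in the 8 lists. Over all stretches the median spread was 14.8 kb (quartiles 7.6 and 27 kb). At the 5 loci it ranged from 2.8 kb at the high-coordinate side of Pax6 and 3.2 kb at the low-coordinate side of Tbx15 to 74.2 kb at the low-coordinate side of Pax3. Of all borders, 3.32% had a smaller spread than the first of these, 4.52% than the second and 95.5% fell below the third. The innermost position at the low-coordinate side of Pax3, in AE replicate 2, lay at a gap of 2.2 kb, past which calls resumed. Both Vax2 positions lay at gaps too, of 1.2 kb in ISC replicate 2 and 1.4 kb in AE replicate 2. The high-coordinate position at Dmbx1 lay at a gap of 8.2 kb in E12.5 replicate 1. These spreads thus include breaks within a domain. At 1.54% of all borders, 7 or more of the 8 libraries lay within 1 kb of the innermost position. Tbx15 had the only such border among the 10. E12.5 replicate 1 set the innermost position, alone or with another library, at 4 of the 10 borders, against 34.6% of all borders, and ISC replicate 1 the outermost at 5 of the 10, against 49.6% of all borders. Without ISC replicate 1 the spread was 60 kb instead of 74.2 kb at the low-coordinate side of Pax3 and 9.2 instead of 18 kb at its high-coordinate side. It was 8.2 instead of 22.6 kb at the high-coordinate side of Tbx15. At the low-coordinate sides of Vax2 and Dmbx1 it was 19 and 26 kb instead of 39 and 44.2 kb.

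Within a list, the islands over the 5 stretches ranked in a recurring order by the authors' fold, ChIP over control reads scaled for library size. The fold of Pax6 was 2.10 and 4.65 in E12.5 libraries, 4.32 and 6.06 in E14.5 libraries, 4.06 and 2.14 in stem cells, and 2.04 and 2.32 in enterocytes. That of Tbx15 was 1.93 and 4.59, 4.05 and 5.66, 3.65 and 2.13, and 2.23 and 2.05 in the same order of libraries. Pax6 had the highest fold of the 5 in 6 of 8 lists, with Pax3 first in ISC replicate 2 and Tbx15 first in AE replicate 1. The fold of Pax3 was 2.04 and 3.70 in E12.5 libraries, 3.73 and 5.26 in E14.5 libraries, 3.38 and 2.25 in stem cells, and 2.17 and 2.22 in enterocytes. Vax2 followed with 1.74 and 3.59, 2.50 and 3.86, 2.96 and 2.03, and 1.70 and 2.09. Dmbx1, with 1.65 and 3.08, 2.46 and 3.36, 2.69 and 1.77, and 1.67 and 1.93, was lowest in 8 of 8 lists. Pax6, Pax3 and Tbx15 were all above Vax2 and Dmbx1 in 7 of 8 lists, AE replicate 2 being the exception. Over all islands that touch a window, chosen as a second measure after the first was seen, Pax6 was highest in 7 lists and these 3 loci were above the other 2 in 7, but Dmbx1 was lowest in 6 and Vax2 in 2. The exception to the order of the 3 loci was then a different list, ISC replicate 2, where Pax3 (1.93) fell below Vax2 (1.94). The islands differ in length, and the fold describes the island, not the gene.

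**Figure D3:**
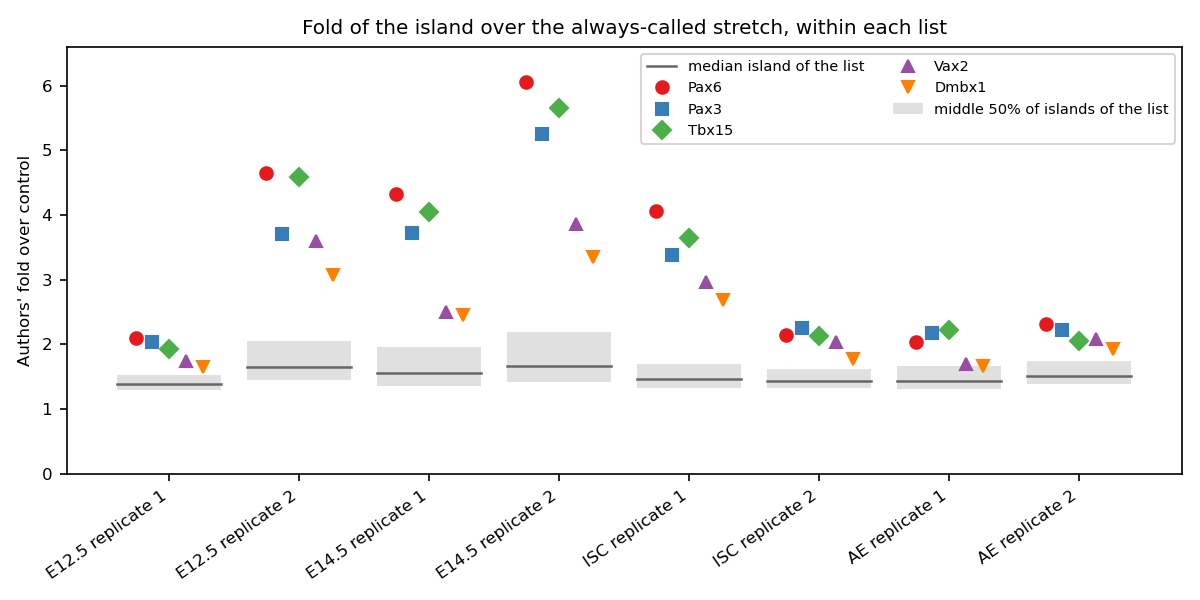
The authors' fold over control of the island over the longest always-called stretch of each locus, within each of the 8 lists. Grey boxes span the middle 50% of islands of the list and grey lines its median. Dmbx1 is the lowest of the 5 in 8 of 8 lists, and the 5 folds lie above the list median throughout.

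Duplicates of a group differed in fold. Replicate 2 of E12.5 had 1.81 to 2.38 times the fold of replicate 1 at the 5 loci, while the ratio of the medians of the 2 lists was 1.2. In E14.5 the ratio was 1.36 to 1.54 (lists 1.07), in ISC 0.528 to 0.685 (lists 0.986) and in AE 0.921 to 1.23 (lists 1.05). The medians of the lists include many short islands, and always-called stretches of 20 kb or more differed between duplicates too. Over those stretches replicate 1 had a median fold of 1.87 at E12.5, 3.31 at E14.5, 3.09 for stem cells and 1.84 for enterocytes. The medians of replicate 2 were 4.08, 4.35, 2.03 and 2.11 in that order. The gap between duplicates was thus not limited to the 5 loci. Folds were therefore not compared between populations. In each list the 5 islands lay above most others: the share of islands with a lower fold was 86.4% to 98.3% in E12.5 replicate 1, 97.4% to 99.8% in ISC replicate 1 and 75.1% to 94.6% in AE replicate 1, which had the lowest values. Stretches of 20 kb or more are closer to the loci in length. Against their medians, the median fold of the 5 loci was lower in E12.5 replicate 2 (3.70) and AE replicate 2 (2.09). It was higher in the other lists, with 1.93 in E12.5 replicate 1, 3.73 and 5.26 in E14.5, 3.38 and 2.13 in ISC, and 2.04 in AE replicate 1. Control reads gave 16.1 to 25.8 per kb over these islands, and none of the 5 exceeded the 90th percentile of its list in any of the 8.

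Because the loci were chosen for being called everywhere, how they fared under stricter calling is a description. Of islands with a fold of 1.5 or more, and likewise of those with an FDR of 1e-10 or less, the 5 stretches stayed covered in 8 of 8 lists, as did 40.3% and 43.2% of the 874 stretches and 91.9% and 96.8% of the 62 stretches of 20 kb or more, which are closer to the loci in length. The same held when each list was trimmed, highest p-values first, to the covered length of the shortest, where 90.3% of the 874 and 100% of the 62 stayed. At a fold of 2 or more, Pax6 and Pax3 were still called in 8 lists, Tbx15 in 7, Vax2 in 6 and Dmbx1 in 4, beside 4.35% of all stretches, and 12.9% of those of 20 kb or more, called in 8. At a fold of 3 or more, Pax6, Pax3 and Tbx15 were called in the same 4 libraries, E12.5 replicate 2, both E14.5 and ISC replicate 1, and Vax2 and Dmbx1 in 2, the replicate 2 libraries of E12.5 and E14.5. None of the 874 was then called in all 8 (percent called 0). The median fold over the 874 stretches was 3.02 in E12.5 replicate 2, 2.44 and 3.20 in E14.5 and 2.47 in ISC replicate 1. It was 1.56 to 1.79 in the other lists, where none of the 5 loci passed a fold of 3. In E14.5 replicate 1 and ISC replicate 1, Pax6, Pax3 and Tbx15 passed and Vax2 and Dmbx1 did not. Passing thus differed by locus as well as by list, and the cause was not tested.

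Change with age was examined in the flanks, whose called length did not enter the choice of the loci. The flanks are not independent of that choice, since a stretch ends where the least extended list stops. Those of Pax3, Vax2 and Dmbx1 also hold further always-called stretches. For each of the 874 stretches, the length called in the stretch and 20 kb to either side was compared between the 4 embryonic and the 4 adult libraries. The stretch itself is called in every library and adds the same length to each. Islands count only up to the end of the flanks. The most a library can reach is 75.6 kb at Pax6, 74 kb at Pax3, 74.8 kb at Tbx15, 73.8 kb at Vax2 and 85.8 kb at Dmbx1. At each of the 5 loci the lengths of embryonic and adult libraries overlapped. The mean length at Pax6 was 47.9 ± 2.26 kb in embryonic and 45.7 ± 6.66 kb in adult libraries (SD, n = 4 each), a difference (adult minus embryonic) of -2.2 kb (exact permutation test, two-sided p = 0.657, adjusted p = 0.889). At Pax3 it was 58.5 ± 4.54 and 61.3 ± 8.25 kb (SD, n = 4 each), a difference of 2.8 kb (exact permutation p = 0.543, adjusted p = 0.843). Without ISC replicate 1 the Pax3 difference was -0.767 kb, and without AE replicate 2 the Pax6 difference was 0.683 kb. Tbx15 had 43.4 ± 7.36 and 43.3 ± 8.41 kb (SD, n = 4 each; difference -0.15 kb, exact permutation p = 1, adjusted p = 1), and the sign turned when any 1 of 5 libraries was left out (0.133 to 2.38 kb). Vax2 had 61.8 ± 9.48 and 67.7 ± 5.47 kb (SD, n = 4 each; difference 5.95 kb, exact permutation p = 0.343, adjusted p = 0.717). The Vax2 difference was 2.57 kb without E12.5 replicate 2, 1.15 kb at equal covered length, and -1.2, -2.3 and -0.05 kb with the FDR limit, the fold limit of 1.5 and flanks of 10 kb. With flanks of 50 kb it was 20.45 kb (exact permutation p = 0.114, adjusted p = 0.540). Dmbx1 had 73.1 ± 14.1 and 80.5 ± 4.67 kb (SD, n = 4 each; difference 7.4 kb, exact permutation p = 0.457, adjusted p = 0.797), and without E12.5 replicate 1 the difference was 0.517 kb. Adjusted p-values are Benjamini-Hochberg over the 874 stretches. None of the 874 reached an adjusted p of 0.05 (percent called 0), and 58 (6.64%) had an unadjusted p under 0.05, none of them at these loci. The smallest p this design allows is 0.0286, and 500 stretches would have had to reach it for any to pass after adjustment, so a missed threshold does not show that the lengths were equal. The median difference was 2.8 kb over the 5 loci and 2.58 kb over the 874 stretches, of which 65.1% were longer in adult libraries. The 4 adult libraries all lay above the 4 embryonic ones at 5.72% of the stretches and all below at 0.915%, in neither case at any of the 5 loci.

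**Figure D4:**
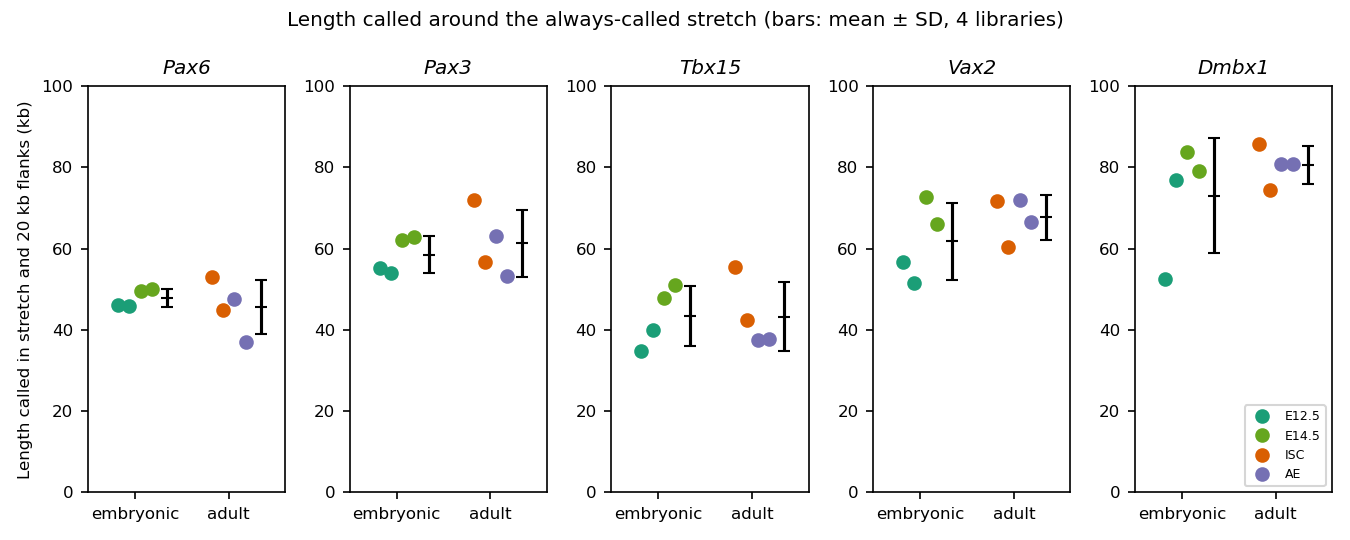
Length called (kb) in the longest always-called stretch of each locus and 20 kb on either side, 1 point a library coloured by group, with the mean and SD of the 4 embryonic and the 4 adult libraries as bars. Embryonic and adult libraries overlap at the 5 loci, and both E14.5 libraries lie above both E12.5 libraries, as they do at 58.7% of the 874 stretches.

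Within the embryo, the called length at the 5 loci was greater in the E14.5 than in the E12.5 libraries, an order that most long stretches shared. The length called in stretch and flanks at Pax6 was 46.0 and 45.8 kb at E12.5 and 49.6 and 50.0 kb at E14.5. It was 55.2 and 54.0 against 62.0 and 62.8 kb at Pax3, and 34.8 and 40.0 against 47.8 and 51.0 kb at Tbx15. At Vax2 it was 56.6 and 51.6 against 72.8 and 66 kb, and at Dmbx1 52.4 and 76.8 against 83.8 and 79.2 kb. Both E14.5 libraries were above both E12.5 libraries at 5 of 5 loci, as they were at 58.7% of the 874 stretches and at 77.4% of the 62 stretches of 20 kb or more. The opposite order, seen at 2.52% of the 874, occurred at none of the 5 loci. This and the other comparisons of single populations were chosen after values were seen. An exact permutation of 2 libraries against 2 cannot give a p below 0.333, and no test was run. The count was 4 of 5 at equal covered length, with an FDR of 1e-10 or less and with flanks of 10 kb, and 3 of 5 with flanks of 50 kb.

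In the adult libraries the length in stretch and flanks was 53 and 45 kb in ISC and 47.6 and 37.0 kb in AE at Pax6, and 72.0 and 56.8 against 63.2 and 53.2 kb at Pax3. It was 55.4 and 42.4 against 37.4 and 37.8 kb at Tbx15, the 1 locus of 5 where both ISC libraries lay above both AE libraries, as they did at 17.3% of all stretches (the opposite order held at 0.915% and at none of the loci). Vax2 had 71.8 and 60.4 kb in ISC and 72.0 and 66.6 kb in AE, and Dmbx1 85.8 and 74.4 against 80.8 and 80.8 kb. From E14.5 to ISC no locus of the 5 separated in either direction (15.2% of all stretches were longer in both ISC libraries and 12% in both E14.5 libraries). Both E14.5 libraries lay above both AE libraries at Pax6 and Tbx15 (36% of all stretches, with 16% in the opposite order and none of the loci). Both AE libraries lay above both E12.5 libraries at Vax2 and Dmbx1 (39.8%, opposite order 10.8% and no locus), and both ISC libraries above both E12.5 libraries at Pax3, Tbx15 and Vax2 (38.4%, opposite order 2.52% and no locus). ISC replicate 1 had the longest called length of the 8 libraries at 4 of 5 loci, and E14.5 replicate 1 at Vax2. At Dmbx1 the 85.8 kb of ISC replicate 1 was the most that the measure allows.

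The other 3 of the 8 longest always-called stretches lay at chr15:102775601-102843600 (68 kb), chr11:96111201-96167800 (56.6 kb) and chr6:52154801-52204800 (50 kb). Their median fold was above the median of the 5 loci in 8 of 8 lists, with 5.34 against 5.26 in E14.5 replicate 2 and 4.67 against 3.70 in E12.5 replicate 2. The next stretch in length, just below the 8, spanned 33.4 kb at chr9:91252201-91285600, against 33.8 kb at Vax2, the shortest of the 5. The fold at this chr9 stretch was above that of Pax6 in every list, with 6.31 against 6.06 in E14.5 replicate 2 and 2.35 against 2.32 in AE replicate 2. The stretches of 20 kb or more outside the loci whose called length followed the mean of the 5 loci most closely over the 8 libraries were chr6:6809201-6835000 (Pearson r = 0.957), chr5:106873801-106905600 (r = 0.942) and chr5:75462001-75484400 (r = 0.936). The median r over 57 such stretches was 0.727. All values of a library share its depth and extent of calling, so these coefficients are descriptions without a test.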

How the data were processed

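The authors deposited 1 island list per ChIP library. Build mm9 and SICER 1.1, with Bowtie 1.1.2, bcl2fastq 1.8.4 and SAMtools 1.2, are named per the submitters' processing notes. Settings are not given in the sources used here. The lists have no header. From the values, the deposited columns are ChIP and control read counts (whole numbers), a p-value and an FDR per island (none above 0.01), and the authors' fold, a ratio of ChIP to control scaled by library size. The 4 inputs enter only as control counts. Depth outside islands is unknown, so no count model across libraries could be fitted.

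Islands were painted on 200 bp windows (Python 3.11.15, numpy 2.4.6). The test was an exact two-sided permutation over 70 assignments of 4 and 4 libraries, adjusted over 874 stretches, with code tested on simulated data. Duplicates count as separate units in it, so its p-values hold for libraries. Alternatives were stricter FDR or fold, equal covered length, other flanks, a replicate block and each library left out. The loci, the test and the lists of regions were chosen with earlier results of these data known. Named regions were the 5 loci, the other longest always-called stretches, the next in length and the 3 most alike. An annotation of mm9 was not used here, so other Pax, Tbx and homeobox genes were not analysed here, and promoter entries for Pax3, Tbx15 and Vax2 are not shown.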

Additional observations from a re-analysis of the deposited data

Results flagged for a closer look

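At Tbx15, ISC replicate 1 had 50.8% of the window called and stood apart from the 3 other adult libraries, which had 31.4%, 27.7% and 28.0%. Its list covered 241 Mb in all, against 60.8, 80.0 and 91.0 Mb for those 3, and the part of this difference in the result was not tested. A gap of this size appears by chance in about 1 of 20 groups, and 20 groups of values were looked at.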

How the results depend on the processing

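Under all 15 alternatives none of the 5 loci reached an adjusted p of 0.05 between embryonic and adult libraries (exact permutation test with Benjamini-Hochberg adjustment). The lowest adjusted p in that test was 0.540, at Vax2 with flanks of 50 kb, where the difference was 20.45 kb. None of the stretches reached 0.05 under the 16 alternatives run for all stretches. The design can hardly reach that threshold, so this says nothing about stability. In 59 of 75 cases the direction was kept. It was reversed at Pax6 with flanks of 50 kb (4.6 kb), at Vax2 with an FDR of 1e-10 or less (-1.2 kb), a fold of 1.5 or more (-2.3 kb) and flanks of 10 kb (-0.05 kb), and at Tbx15, where the difference was near 0, with the FDR limit (3.65 kb), the fold limit (0.85 kb), equal covered length (2.7 kb) and flanks of 10 kb (0.2 kb) and 50 kb (1.3 kb). The cause was not tested. With 1 library left out the differences ranged from -4.65 to 0.683 kb at Pax6, -0.767 to 5.5 kb at Pax3, -4.2 to 2.38 kb at Tbx15, 2.57 to 9.63 kb at Vax2 and 0.517 to 10.98 kb at Dmbx1. Replicate numbers pair no samples by the labels, and deviations of same-numbered libraries correlated between -0.219 and 0.139 over the 6 pairs of groups. With the replicate block (36 assignments) the differences are by construction the same, -2.2, 2.8, -0.15, 5.95 and 7.4 kb for Pax6, Pax3, Tbx15, Vax2 and Dmbx1, and since the smallest p it allows is 0.0556, no call was possible. E14.5 was longer than E12.5 at 829 of 1469 stretches of 2 kb or more and at 176 of 281 of 10 kb or more, where the number tested differs, and at 3 of the 5 loci with flanks of 50 kb. Reads outside islands are not listed, which limits every statement on uncalled length.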
